A study of Mus musculus with 6 samples.

Results

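Connecting tubule cells of mouse kidney were described here in sham mice and in mice given DOCA-salt. A cell of this type was defined as a barcode of the single-cell matrices that met a rule on its counts of unique molecular identifiers (UMIs). The rule asked for at least 1000 UMIs in all, at most 50% of them from mitochondrial (mt-) genes, and at least 2 UMIs each of Calb1 and Slc8a1. It allowed at most 1 UMI of Slc12a3, at most 1 of Slc12a1, at most 0.2% of UMIs from the proximal tubule genes Lrp2, Slc34a1, Slc5a12 and Slc22a6 together, and 0 UMIs of Slc26a4, Aqp4, Ptprc, Pecam1 and Col1a1. Of 50910 barcodes that met the limits on UMIs and mt- genes, 626 met the whole rule, 479 from sham mice and 147 from DOCA-salt mice. Because the members were chosen by the counts of these 13 genes, the levels of those genes are a description and were not tested.

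The connecting tubule joins the distal convoluted tubule to the collecting duct. It takes up calcium from the urine through the apical channel Trpv5, carries it across the cell bound to the calbindins (Calb1 and S100g) and exports it through the sodium-calcium exchanger Slc8a1 and calcium pumps. It also holds the epithelial sodium channel (Scnn1a, Scnn1b and Scnn1g), the potassium channel Kcnj1 and the mineralocorticoid receptor Nr3c2. The enzyme Hsd11b2 keeps glucocorticoids away from that receptor, so that aldosterone, or the mineralocorticoid DOCA (deoxycorticosterone acetate), can act on it.

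All animals were male C57BL/6 mice, 8 to 10 weeks old at purchase. The 3 DOCA-salt mice had the left kidney removed, received a 50 mg DOCA pellet under the skin a week later and drank 1% NaCl for 21 days. The 3 sham mice had a sham surgery, plain water and no pellet, so that nephrectomy and DOCA-salt cannot be told apart. Dissociated kidney cells gave 1 library per mouse, made with 10x Genomics 3′ chemistry. The members numbered 119, 181 and 179 in sham mice 1, 2 and 3, and 60, 39 and 48 in DOCA-salt mice 1, 2 and 3. Summed over members, a mouse gave 605546 to 1728962 UMIs. The median member held 9324 UMIs in sham and 13525 in DOCA-salt, and the deepest held 82558, which was 11.7% of the UMIs of DOCA-salt mouse 2. No barcode was a member in more than 1 library, and 17 members had a barcode that another library also held.

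The label was checked on genes that the rule did not use, as a description, since the barcodes were chosen on the same cells. Trpv5, which marks this segment, stood at 358 CPM (UMIs of the gene per 1000000 UMIs of the members' sum) against 9.37 CPM in all other barcodes. No Trpv5 UMI was found in 235 of the 626 members, 192 of 479 in sham and 43 of 147 in DOCA-salt. S100g stood at 14503 CPM against 475 CPM, Scnn1g at 291 against 10.7 CPM, and Egfem1 at 1214 against 27.7 CPM. Among genes of at least 100 CPM in the members, Egfem1, Trpv5, Kcne1, S100g and Scnn1g had the largest ratios, ahead of the rule's own Slc8a1 and Calb1.

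The members were not uniform. In 412 of them S100g made up at least 0.2% of UMIs while genes of intercalated cells, the acid and base secreting cells among them, stayed under 0.2%. In 142 members both S100g and the intercalated cell genes were under 0.2% (called low in S100g here), and in the other 72, whatever their S100g, the 9 intercalated cell genes (Atp6v1g3, Atp6v0d2, Atp6v1b1, Foxi1, Slc4a1, Slc4a9, Aqp6, Kit and Hmx2) made up 0.2% or more. The limits were set after the levels were seen, and 19 members lay between 0.1% and 0.3% of S100g and 16 between those values for intercalated cell genes. Members with intercalated cell genes were 7.53 ± 2.70% (SD, n = 3) of the members of a sham mouse and 24.8 ± 3.68% of those of a DOCA-salt mouse, without overlap (exact permutation test, two-sided, p = 0.1, the smallest that 3 mice against 3 can give). They were deep, with a median of 17574 UMIs against 9511 in the S100g-rich members, and 21 of the 33 members with the highest doublet scores were among them. Of these 72, 33 were also under 0.2% of S100g. Members low in S100g were 24.7 ± 2.64% in sham and 14.4 ± 4.04% in DOCA-salt (exact permutation p = 0.1), but all 175 members under 0.2% of S100g, with the 33 counted in, were 27.5 ± 0.535% and 28.5 ± 5.16%, with overlap (exact permutation p = 0.7). In sham the members low in S100g held Aqp2 at 4339 CPM against 1385 CPM in the S100g-rich members. Aqp2 is also a gene of principal cells, so the label is less sure for members low in S100g. Whether these are principal cells was not tested.

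**Figure D1:**
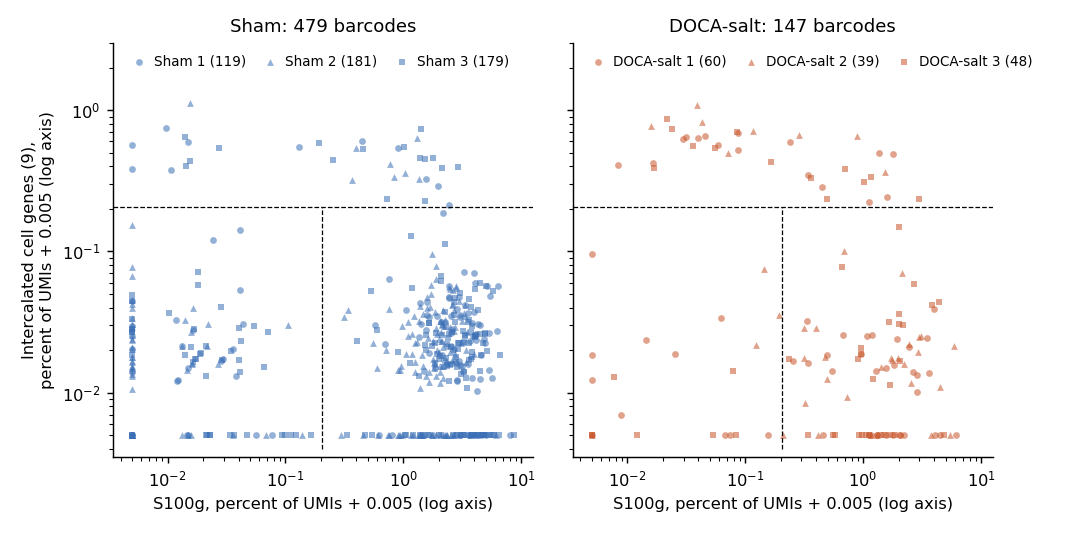
Each point is 1 member, with the percent of its UMIs from S100g on the x axis and from 9 intercalated cell genes on the y axis (both plus 0.005, log axes), and dashed lines at 0.2%. Points above the horizontal line are 35 of 479 sham members and 37 of 147 DOCA-salt members, and most of the others lie at the lower right.

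Results were therefore set beside their value without the 72 members with intercalated cell genes, and beside their value in the 412 S100g-rich members where this changed the call of a gene described here. The summed level of the 9 intercalated cell genes was 558 to 1000 CPM in sham mice and 1536 to 1876 CPM in DOCA-salt mice, and 178 to 248 CPM against 91.6 to 171 CPM without those members. None of the 9 was at 0, and 5 of the 8 that could be tested rose. The summed level of 7 principal cell genes (Aqp2, Aqp3, Fxyd4, Avpr2, Hsd11b2, St6gal1 and Apela) was 6312 to 9251 CPM in sham and 2184 to 2390 CPM in DOCA-salt, and 6 of the 7 fell. The 7 fibroblast and mural genes summed to 743 CPM in DOCA-salt mouse 1 and to 9.25 to 55.9 CPM in the other 5 mice, and 96.0% of the DOCA-salt UMIs of the smooth muscle gene Tagln came from 1 barcode of that mouse. The 5 podocyte and parietal genes summed to 137 CPM in that mouse and to 1.16 to 24.8 CPM elsewhere. Immune genes summed to 4.63 to 28.0 CPM in sham and 39.0 to 69.4 CPM in DOCA-salt, with Cd3e and S100a8 at 0. Proximal tubule genes summed to 1689 to 4155 CPM and 1850 to 2056 CPM, and those of the thick ascending limb to 92.5 to 252 CPM and 115 to 181 CPM. The 5 distal convoluted tubule genes (Pvalb, Trpm6, Wnk4, Fxyd2 and Sgms2) summed to 1818 to 2339 CPM in sham and 2500.1 to 3088 CPM in DOCA-salt, without overlap. Of the 4 that could be tested, 1 (Trpm6) rose and 1 fell. Without the members with intercalated cell genes the 5 summed to 1827 to 2248 CPM and 2269 to 2671 CPM, also without overlap. A list of 10 connecting tubule genes held the rule's Calb1 and Slc8a1, and Trpv5, S100g, Klk1, Scnn1b, Scnn1g, Hsd11b2, Kcnj1 and Tfcp2l1. It summed to 36426 to 47319.9 CPM in sham and 29978 to 34189 CPM in DOCA-salt, with 5 of 8 tested lower. Without the members with intercalated cell genes its sums overlapped (38169.5 to 52129.8 CPM and 37653 to 39761 CPM). There the 13 genes of the rule summed to 6997 to 10036 CPM in sham and 16301 to 17722 CPM in DOCA-salt. The list thus mixes genes that chose the members with genes that did not, and its sum without Calb1 and Slc8a1 was not computed. The part of these levels in the results was not tested.

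Connecting tubule cells by this rule made up 1.34, 2.51 and 2.06% of the barcodes of sham mice 1 to 3, and 0.690, 0.428 and 0.577% of those of DOCA-salt mice 1 to 3. The means were 1.97 ± 0.592% and 0.565 ± 0.131% (SD, n = 3 and 3), 3.49 times higher in sham, without overlap (exact permutation test, two-sided, p = 0.1, the smallest possible). The share depended on how the rule was set. Barcodes with 2 or more UMIs of both Calb1 and Slc8a1 were as many in DOCA-salt (1355) as in sham (1354), at 5.14 ± 1.58% and 5.48 ± 0.750% of barcodes. Of these, 35.6 ± 8.21% met the remaining conditions in sham and 11.99 ± 5.02% in DOCA-salt. The limit on Slc12a3, the thiazide-sensitive transporter of the distal convoluted tubule, left 76.9 ± 5.44% of them in sham and 50.3 ± 9.50% in DOCA-salt. The condition of no Aqp4, a basolateral water channel of principal cells, then left 574 of 713 sham barcodes and 202 of 399 DOCA-salt barcodes. Without the condition on Aqp4 the shares were 2.43 ± 0.624% and 1.13 ± 0.207% (exact permutation p = 0.1). With Calb1 and Slc8a1 at 1 UMI or more, the shares were 2.48 ± 0.583% and 1.14 ± 0.147%, and of the S100g-rich members alone they were 1.33 ± 0.400% and 0.337 ± 0.0415%.

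At the edges of the rule, members with exactly 2 UMIs of Calb1 numbered 6, 9 and 14 in sham mice and 4, 8 and 8 in DOCA-salt mice. Barcodes with 1 UMI of Calb1 that met every other condition numbered 20, 14 and 29 in sham and 22, 28 and 29 in DOCA-salt.

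**Figure D2:**
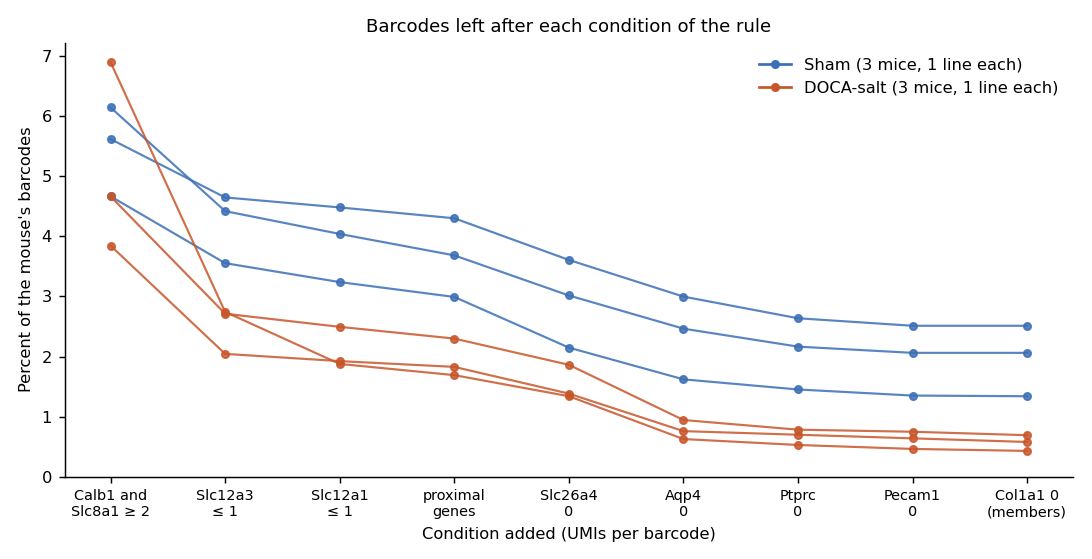
Percent of each mouse's barcodes (at least 1000 UMIs, at most 50% mt-) left as the conditions of the rule are added from left to right, with 1 line per mouse. The groups overlap after the conditions on Calb1 and Slc8a1, part at the limit on Slc12a3, and end at 1.34 to 2.51% in sham and 0.428 to 0.690% in DOCA-salt.

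Of the genes that chose the members, Calb1 stood at 2682, 2037 and 1735 CPM in sham and at 2381, 2180 and 1655 CPM in DOCA-salt, which overlap. Slc8a1 stood at 6008, 4443 and 4655 CPM in sham and at 12086, 12681 and 11015 CPM in DOCA-salt, higher in every DOCA-salt mouse. In the S100g-rich members Slc8a1 was at 6911 ± 910.1 CPM and 16791 ± 328 CPM. In principal cells, chosen with no condition on Slc8a1, its level was 349 ± 87.2 CPM in sham and 1359 ± 182 CPM in DOCA-salt. In distal convoluted tubule cells it was 5040 ± 1961 CPM and 5716 ± 489 CPM. The principal cells included barcodes with 2 or more UMIs of both Calb1 and Slc8a1, a mix that differed by group. Leaving these out kept 85 of 122, 89 of 123 and 93 of 136 principal cells in sham mice 1 to 3. In DOCA-salt mice 1 to 3 it kept 54 of 110, 46 of 95 and 66 of 104. The Slc8a1 level without them was not computed.

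UMIs were summed per mouse over the members and compared between the groups with edgeR's quasi-likelihood test. Of 9073 genes that could be tested, 463 were higher and 509 lower in DOCA-salt at an adjusted p under 0.05, which is 10.7% of the genes (5.1% higher and 5.61% lower). Scaling by library size alone gave 565 higher and 396 lower. Without the members with intercalated cell genes the test called 878 of 8274 genes, or 10.6%. In the S100g-rich members it called 318 genes higher and 300 lower of 7429. Without DOCA-salt mouse 1, whose fibroblast and podocyte gene levels stood apart, it called 452 higher and 401 lower of 9906. The lists below are read against these shares. The median log2 change over all genes tested was -0.01.

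The condition of no Aqp4 changed many results. It removed barcodes unequally, as given above, and Aqp4 is a gene of principal cells. Without it there were 888 members, 593 from sham mice and 295 from DOCA-salt mice. The test then called 648 genes higher and 477 lower of 10260, or 11% of them (6.32% higher and 4.65% lower). Of the 972 genes called with the condition, 584 were also called without it, 1 of these in the opposite direction. Values with Aqp4 allowed, an alternative chosen after the data were seen, are given below where a call was lost. They are also given for some called genes whose value moved, but not for all of them.

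Among calcium and magnesium genes, 16 of 21 could be tested, 2 rose and 1 fell, with a median log2 change of 0.14. Trpm6, an apical magnesium channel and 1 of the 5 distal convoluted tubule genes given above, stood at 26.5, 17.9 and 28.6 CPM in sham and at 127, 156 and 144 CPM in DOCA-salt. It rose by 2.48 on the log2 scale (SE 0.21, adjusted p = 4.31e-06), by 2.55 in the S100g-rich members and by 1.91 without the condition on Aqp4. Atp2b4, a calcium pump of the plasma membrane, stood at 80.2, 68.2 and 49.0 CPM in sham and at 181, 178 and 244 CPM in DOCA-salt, a rise of 1.55 (SE 0.20, adjusted p = 0.000147). Casr, the calcium-sensing receptor, fell from 30.9, 24.9 and 29.2 CPM to 9.76, 14.2 and 9.91 CPM, a log2 change of -1.38 (SE 0.31, adjusted p = 0.00934). With Aqp4 allowed, the changes of Atp2b4 and Casr were 0.88 and -2.10 (adjusted p = 0.0113 and 0.00064). Of the 16 genes 2 then rose and 5 fell, among them the channel Trpm7 (-0.59, adjusted p = 0.0136) and Egf (-0.93, adjusted p = 0.0349).

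Trpv5, the calcium entry channel, did not pass the test with all 6 mice. It stood at 425, 360.3 and 417 CPM in sham and at 281, 426 and 239 CPM in DOCA-salt (log2 change -0.40, SE 0.21, adjusted p = 0.296), and the groups overlapped. Without DOCA-salt mouse 2 it passed with -0.71 (adjusted p = 0.0337), and without DOCA-salt mouse 3 the change was -0.23 (adjusted p = 0.682). It also passed with Aqp4 allowed, with -0.64 (adjusted p = 0.0461). After thinning each member to 1000 UMIs, 24.5 ± 1.41% of sham members and 24.0 ± 6.56% of DOCA-salt members kept a Trpv5 UMI (exact permutation p = 1), against 0.0685% and 0.0961% of proximal tubule barcodes. At 3000 UMIs the shares of members were 42.7 ± 0.788% and 48.1 ± 4.55%, higher in DOCA-salt (exact permutation p = 0.1). S100g stood at 21009.7, 12576 and 20115 CPM in sham and at 10572, 12936 and 9808 CPM in DOCA-salt (log2 change -0.75, SE 0.25, adjusted p = 0.0736). It passed without sham mouse 2 (-0.96, adjusted p = 0.00214), by DESeq2 (adjusted p = 0.0163) and without the condition on Aqp4 (-1.40, adjusted p = 0.0022). After thinning, its share was 76.8 ± 2.12% and 80.8 ± 5.78% (exact permutation p = 0.4). The share was higher in DOCA-salt without the members with intercalated cell genes, at 77.4 ± 3.16% and 86.6 ± 6.54%, and at 3000 UMIs, at 81.4 ± 4.60% and 89.6 ± 5.44% (exact permutation p = 0.1 for each). It was lower without the condition on Aqp4, at 65.5 ± 2.08% and 50.7 ± 4.80% (exact permutation p = 0.1), so that its direction depended on the members counted. In proximal tubule barcodes, which should lack S100g, it was 19.0 ± 8.48% in sham and 7.35 ± 1.61% in DOCA-salt. The S100g background thus moved with the group, and its part in the S100g level was not tested. The vitamin D receptor Vdr (log2 change 0.23, adjusted p = 0.484), the parathyroid hormone receptor Pth1r (0.35, adjusted p = 0.478), Kl, which encodes klotho (0.19, adjusted p = 0.574), and the calcium pump Atp2b1 (0.37, adjusted p = 0.164) did not pass either, although Pth1r passed without sham mouse 1 (0.77, adjusted p = 0.0297). Over the alternatives run, the log2 change of Pth1r ranged from -0.51 to 1.26, and its lowest adjusted p was 0.00398. Without the members with intercalated cell genes, Atp2b1 passed with a log2 change of 0.60 (adjusted p = 0.0399), as did the magnesium transport gene Cnnm2 with 0.71 (adjusted p = 0.0468).

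Of 22 tested genes of sodium entry and mineralocorticoid action, 9 fell, 1 rose and 12 did not pass, with a median log2 change of -0.42. In the S100g-rich members 4 fell and 2 rose, and without the condition on Aqp4 5 fell and 1 rose. The 3 subunits of the epithelial sodium channel were lower in every DOCA-salt mouse than in any sham mouse. Scnn1a stood at 428, 447 and 366 CPM in sham and 287, 273 and 231 CPM in DOCA-salt (log2 change -0.70, SE 0.16, adjusted p = 0.0124). Scnn1b stood at 620.3, 382 and 548 CPM and 207, 362 and 233 CPM (-1.01, SE 0.24, adjusted p = 0.0149). Scnn1g stood at 381, 403 and 345 CPM and 204, 194 and 216 CPM (-0.94, SE 0.15, adjusted p = 0.000972). The gap between the groups was wide for Scnn1g and narrow for Scnn1b.

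These falls depended on which members were counted. With Aqp4 allowed, Scnn1a did not pass (-0.22, adjusted p = 0.441), while Scnn1b and Scnn1g passed (-0.93 and -1.04, adjusted p = 0.0276 and 0.0003). In the S100g-rich members the log2 changes were -0.51 for Scnn1a (adjusted p = 0.114), -0.73 for Scnn1b (adjusted p = 0.0734) and -0.58 for Scnn1g (adjusted p = 0.0704), none past the threshold. Scnn1b also missed it without sham mouse 1, sham mouse 3, DOCA-salt mouse 1 or DOCA-salt mouse 3 (log2 changes -0.84, -0.97, -0.83 and -0.91). Scnn1a missed it without sham mouse 1 or DOCA-salt mouse 3 (-0.66 and -0.61), with Calb1 and Slc8a1 at 4 UMIs or more, and with Slc12a3 at 0 (adjusted p = 0.0957 and 0.0603). In sums of members thinned to 1000 UMIs each, Scnn1a (-0.31, adjusted p = 0.636) and Scnn1g (-0.52, adjusted p = 0.379) did not pass by edgeR. In members with Aqp2 at 0, Scnn1a, Scnn1b and Scnn1g did not pass (-0.50, -0.88 and -0.16, adjusted p = 0.564, 0.181 and 0.888). After thinning to 1000 UMIs, Scnn1g kept a UMI in 30.0 ± 1.70% of sham members and 19.1 ± 1.24% of DOCA-salt members, Scnn1a in 32.4 ± 2.53% and 23.7 ± 1.44%, and Scnn1b in 40.0 ± 8.05% and 25.3 ± 5.09%. The exact permutation p was 0.1 for Scnn1g and Scnn1a (0.2 after adjustment over 10 genes) and 0.2 for Scnn1b (0.333 adjusted), and proximal tubule barcodes held each of the 3 genes in at most 0.660% of the barcodes of any mouse.

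Hsd11b2, the enzyme that inactivates glucocorticoids beside the receptor, stood at 2419.5, 4322 and 2634 CPM in sham and at 1443, 1109.6 and 1306 CPM in DOCA-salt. It fell by 1.33 on the log2 scale (SE 0.22, adjusted p = 0.001) and by 1.00 in the S100g-rich members (adjusted p = 0.00663), and did not pass without the condition on Aqp4 (-0.50, adjusted p = 0.139). Its thinned share was 86.9 ± 6.71% in sham and 55.4 ± 6.51% in DOCA-salt (exact permutation p = 0.1, adjusted 0.2), against 1.21% and 0.747% in proximal tubule barcodes. Fxyd4, a regulator of the sodium pump, fell from 973, 1513 and 1099.8 CPM to 212, 266 and 378 CPM (log2 change -2.13, SE 0.22, adjusted p = 2.44e-05). The clock gene Per1, which aldosterone can induce, fell by 1.37 (SE 0.25, adjusted p = 0.00208). Neither passed with Aqp4 allowed, with 0.29 for Fxyd4 (adjusted p = 0.328) and -0.66 for Per1 (adjusted p = 0.0656).

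The mineralocorticoid receptor Nr3c2 stood at 862, 1203 and 884 CPM in sham and at 746, 430.3 and 502 CPM in DOCA-salt (log2 change -0.87, SE 0.21, adjusted p = 0.0142). Its call was lost without DOCA-salt mouse 2 (adjusted p = 0.0598) or mouse 3 (adjusted p = 0.0891). Nedd4l, a ubiquitin ligase that removes the sodium channel from the membrane, fell by 0.61 (adjusted p = 0.026, lost without sham mouse 3, DOCA-salt mouse 1 or DOCA-salt mouse 3, with adjusted p of 0.0904, 0.0625 and 0.126). In the S100g-rich members the change of Nedd4l was -0.48 (adjusted p = 0.129). The bicarbonate cotransporter Slc4a4 fell by 0.76 (adjusted p = 0.0175) and missed the threshold without the members with intercalated cell genes (-0.49, adjusted p = 0.176) and without sham mouse 3, DOCA-salt mouse 2 or DOCA-salt mouse 3 (adjusted p = 0.0566, 0.0846 and 0.0628), and its change in the S100g-rich members was -0.67 (adjusted p = 0.145). It did not pass by DESeq2 (adjusted p = 0.0604) or without the condition on Aqp4 (-0.27, adjusted p = 0.394).

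Fkbp5, a target of steroid receptors, rose over all members. It stood at 16.2, 16.8 and 17.5 CPM in sham and at 53.7, 24.1 and 39.6 CPM in DOCA-salt (log2 change 1.16, SE 0.29, adjusted p = 0.0177), and lost its call without sham mouse 1, sham mouse 3, DOCA-salt mouse 1 or DOCA-salt mouse 3 (adjusted p = 0.0532, 0.0503, 0.121 and 0.0569). It overlaps another gene of the files on the same strand. Cnksr3, a scaffold of the sodium channel's regulators, had 0.53 over all members (adjusted p = 0.11) and passed without the members with intercalated cell genes (0.87, adjusted p = 0.0163) and in the S100g-rich members (0.92, adjusted p = 0.0283). Sgk1, the aldosterone-induced kinase, stood at 169, 83.3 and 88.1 CPM in sham and at 200.1, 137 and 119 CPM in DOCA-salt, overlapping (log2 change 0.38, SE 0.27, adjusted p = 0.462). The glucocorticoid-induced Tsc22d3 changed by -0.59 without passing (adjusted p = 0.221). The sodium pump subunit Atp1b1 changed by -0.39 without passing (adjusted p = 0.196).

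Of 18 tested genes of the potassium, chloride and WNK list, 4 fell and 2 rose (median log2 change -0.13). With Aqp4 allowed, 5 fell and 0 rose by edgeR. Kcnj1, the apical potassium channel ROMK, stood at 359, 364 and 295 CPM in sham and at 172, 167 and 168 CPM in DOCA-salt. It fell by 1.06 on the log2 scale (SE 0.16, adjusted p = 0.000515) and by 0.84 in the S100g-rich members (adjusted p = 0.00899). Its thinned share was 28.5 ± 3.17% and 16.5 ± 1.86% (exact permutation p = 0.1, adjusted 0.2). Kcne1, a subunit of potassium channels, fell from 375, 308 and 316 CPM to 85.4, 147 and 67.7 CPM (log2 change -1.78, SE 0.24, adjusted p = 0.000236). Its channel partner Kcnq1 had a change of -0.40 (adjusted p = 0.116).

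Cab39l, a scaffold of the kinases downstream of WNK, fell by 1.00 (SE 0.21, adjusted p = 0.00671), and by 0.50 without the condition on Aqp4 (adjusted p = 0.0462). The basolateral potassium channel subunit Kcnj16 fell by 0.76 (SE 0.16, adjusted p = 0.00624), and by 0.44 without the members with intercalated cell genes, where it did not pass (adjusted p = 0.149), nor did it in the S100g-rich members (-0.41, adjusted p = 0.209). Klhl3, which directs WNK kinases to degradation, rose by 0.68 (adjusted p = 0.0386), a call lost without any 1 of 5 mice (sham mouse 2 or 3, DOCA-salt mouse 1, 2 or 3, adjusted p = 0.065, 0.179, 0.104, 0.08 and 0.105). Bsnd, a subunit of chloride channels, had 0.69 (adjusted p = 0.0252), and 0.44 without the members with intercalated cell genes (adjusted p = 0.299). In the S100g-rich members it had 0.30 (adjusted p = 0.577). Its call was also lost without sham mouse 1, DOCA-salt mouse 1 or DOCA-salt mouse 3 (adjusted p = 0.097, 0.106 and 0.0699) and by DESeq2 (0.0753). With Aqp4 allowed, Klhl3 (0.08, adjusted p = 0.845) and Bsnd (0.13, adjusted p = 0.7) did not pass. Over all members Wnk1 (0.47, adjusted p = 0.151) and Wnk4 (0.17, adjusted p = 0.709) did not pass. Wnk1 passed without the members with intercalated cell genes (0.71, adjusted p = 0.0439).

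Of 11 tested genes of water transport and its vasopressin control, 4 were lower and 2 higher (median log2 change 0.10). With Aqp4 allowed, 1 of 12 tested was lower and 3 higher. Aqp2, the vasopressin-regulated water channel, stood at 1677, 2097 and 2198 CPM in sham and at 306, 539 and 363 CPM in DOCA-salt. It fell by 2.36 (SE 0.23, adjusted p = 1.34e-05), and by 1.78 in the S100g-rich members (adjusted p = 8.69e-05). With Aqp4 allowed its log2 change was 0.14 (adjusted p = 0.734). No Aqp2 UMI was found in 7.81 ± 2.06% of the members of a sham mouse and in 47.6 ± 5.74% of those of a DOCA-salt mouse. After thinning, 66.5 ± 2.13% and 24.2 ± 2.31% kept an Aqp2 UMI (exact permutation p = 0.1, adjusted 0.2), against 2.00% and 1.39% of proximal tubule barcodes. With Aqp4 allowed these shares were 72.6 ± 0.802% and 58.0 ± 5.09% (exact permutation p = 0.1).

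Aqp3, a basolateral water channel, fell from 749.8, 672 and 655 CPM to 121, 66.5 and 142 CPM (log2 change -2.73, SE 0.22, adjusted p = 3.61e-06). Avpr2, the vasopressin receptor that raises cyclic AMP, fell from 126, 105 and 133 CPM to 40.3, 60.9 and 42.9 CPM (-1.39, SE 0.21, adjusted p = 0.000515). Ptger1, a receptor of prostaglandin E2, stood at 44.9, 37.0 and 26.8 CPM in sham and at 3.66, 1.42 and 0 CPM in DOCA-salt (-4.25, SE 0.52, adjusted p = 9.7e-05). With Aqp4 allowed, Aqp3 fell by 0.93 (adjusted p = 0.00215), while Avpr2 (0.31, adjusted p = 0.311) and Ptger1 (-0.34, adjusted p = 0.341) did not pass. The genes that rose, the vasopressin receptor Avpr1a (log2 change 1.93, adjusted p = 0.000849) and the prostaglandin receptor Ptger3 (1.84, adjusted p = 0.00315), were concentrated in the members with intercalated cell genes. Pooled over DOCA-salt mice, Avpr1a stood at 114 CPM in those members and at 1.74 CPM in the S100g-rich ones, and Ptger3 at 111 and 3.48 CPM. Without those members both were too low to test. Pde1a, which breaks down cyclic nucleotides, was at 0.16 on the log2 scale over all members (adjusted p = 0.647) and at -0.70 without those members (adjusted p = 0.0406), and at -0.74 in the S100g-rich members (adjusted p = 0.0432).

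Of 8 testable genes of local hormones, 3 fell (median log2 change -0.54). Klk1, a serine protease that releases kinins and is secreted by this segment, was the most abundant transcript among them, at 12752, 10752 and 12858 CPM in sham and at 2979.6, 3483 and 4593 CPM in DOCA-salt. It fell by 1.78 on the log2 scale (SE 0.22, adjusted p = 0.000103), and by 1.64 in the S100g-rich members (adjusted p = 0.000122), and reads of near-identical kallikrein genes may be split with it. Its thinned share was 49.7 ± 8.49% in sham and 43.7 ± 1.51% in DOCA-salt (exact permutation p = 0.4), against a background of 10.2 ± 7.09% and 2.76 ± 0.635% in proximal tubule barcodes. With Aqp4 allowed, the shares of members were 41.4 ± 7.11% and 24.0 ± 2.27% (exact permutation p = 0.1), and the log2 change of Klk1 was -2.51 (adjusted p = 3.9e-05). Among members with at most 20% mt- UMIs its log2 change was -1.17 (adjusted p = 0.0869). Ednrb, a receptor of endothelin, fell from 36.1, 33.5 and 36.8 CPM to 10.98, 8.49 and 9.91 CPM (-1.90, SE 0.29, adjusted p = 0.000581), and Ptgs1, a cyclooxygenase, from 147, 132 and 149 CPM to 43.9, 67.9 and 57.8 CPM (-1.40, SE 0.19, adjusted p = 0.000237, and -0.57 with adjusted p = 0.0343 without the condition on Aqp4). Edn1, which encodes endothelin 1, was at 32.7 ± 6.44 CPM and 34.5 ± 15.5 CPM (log2 change -0.01, adjusted p = 0.99).

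The study from which the data come dealt with the ATP channel pannexin 1 in tubular cells and with purinergic receptors. Its pannexin 1 mRNA and protein were measured in renal cortex and in cultured tubular cells, which are other measures than the counts here. In connecting tubule cells Panx1 was too low to test, with a UMI in 0.0493 ± 0.0456% of sham members and 0.183 ± 0.240% of DOCA-salt members after thinning (exact permutation p = 0.5), against 0.0150% and 0.0286% of proximal tubule barcodes. Without thinning, the shares of members were 0.557 ± 0.559% and 2.64 ± 3.24% (exact permutation p = 0.5). Of 28 genes of purinergic signalling, pannexins and connexins, 7 could be tested and 1, the connexin Gjb1, passed (15.1 ± 1.59 CPM and 5.97 ± 2.60 CPM, log2 change -1.35, adjusted p = 0.0411). It missed the threshold when any 1 of the 6 mice was left out (adjusted p between 0.0514 and 0.176), without the members with intercalated cell genes (-1.52, adjusted p = 0.0505), without the condition on Aqp4 (-0.24, adjusted p = 0.691) and by DESeq2 (adjusted p = 0.169). With Aqp4 allowed, 9 genes of the list could be tested by edgeR, 0 rose and 2 fell. Adk, which encodes adenosine kinase, was among those that fell (-0.80, adjusted p = 0.00838). With the condition on Aqp4, the ATP-gated channel P2rx4 was at 25.5 ± 4.15 and 34.7 ± 9.44 CPM (adjusted p = 0.485), and the ecto-nucleotidase Nt5e at 5.74 ± 3.15 and 12.4 ± 3.11 CPM (adjusted p = 0.175).

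**Figure D3:**
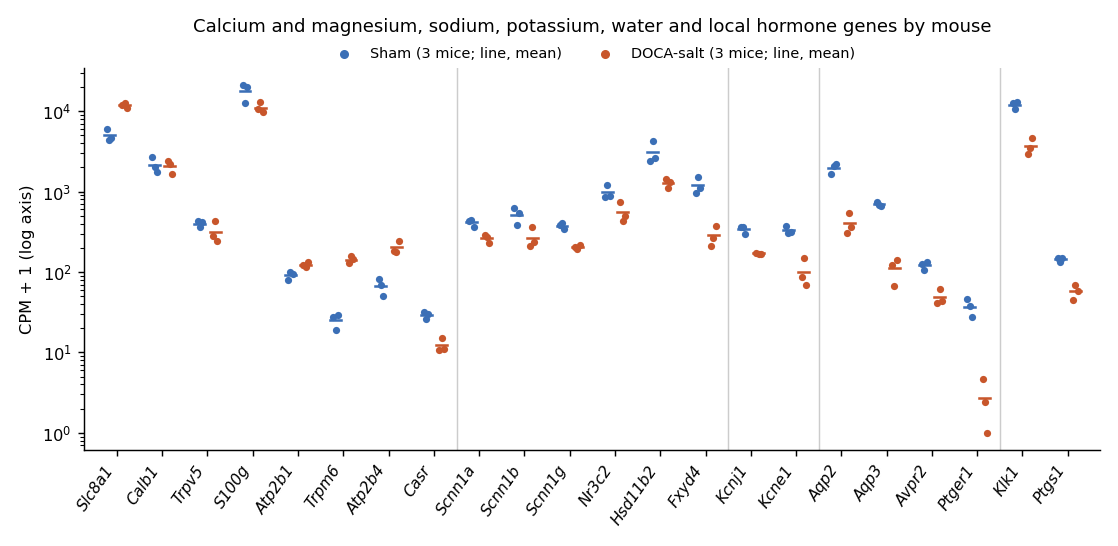
Level of 22 genes in connecting tubule cells by mouse (CPM plus 1, log axis), with sham in blue, DOCA-salt in orange and lines at the means of 3 mice. From left to right the blocks hold calcium and magnesium, sodium, potassium, water and local hormone genes, with Trpm6 and Atp2b4 higher and Scnn1g, Kcnj1, Aqp2, Aqp3, Ptger1 and Klk1 lower in every DOCA-salt mouse.

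Genes of tubular injury, keratins and inflammation moved up. Of 24 tested, 13 rose by the edgeR test and 12 by DESeq2, and 0 fell by either test or at an unadjusted p under 0.05, with a median log2 change of 1.07 against -0.01 over all genes, and 13 of those that could be tested in the S100g-rich members also rose. With Aqp4 allowed, 17 of 27 rose and 0 fell by edgeR. The cytokine gene Tgfb2 stood at 0.736, 3.47 and 3.50 CPM in sham and at 198, 297 and 256 CPM in DOCA-salt (log2 change 6.43, SE 0.31, adjusted p = 3.63e-08). No single barcode held more than 12.3% of its DOCA-salt UMIs. The gene lies on chromosome 1 of GRCm39, from 186354985 to 186438294 on the minus strand. Krt19, a keratin of simple epithelia, stood at 1.47, 1.74 and 1.17 CPM in sham and at 45.1, 166 and 127 CPM in DOCA-salt (6.10, SE 0.55, adjusted p = 6.5e-06).

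Lower rises were seen in genes that sham cells already held. Krt8 went from 286, 224 and 319 CPM to 450.2, 949.7 and 755 CPM (log2 change 1.32, SE 0.25, adjusted p = 0.00294). Its partner Krt18 rose by 1.05 (adjusted p = 0.0294), a call lost without sham mouse 1, sham mouse 3, DOCA-salt mouse 2 or DOCA-salt mouse 3 (adjusted p = 0.0566, 0.0627, 0.159 and 0.0826). The secreted chaperone Clu rose from 1071, 639 and 1743 CPM to 1956, 5557 and 2482 CPM (1.48, SE 0.39, adjusted p = 0.0253), and lost its call without sham mouse 1 (1.44, adjusted p = 0.0858) or DOCA-salt mouse 2 (0.85, adjusted p = 0.141), by DESeq2 (adjusted p = 0.173) and without the condition on Aqp4 (1.00, adjusted p = 0.141).

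The transcription factor Sox4 went from 99.3, 89.6 and 78.8 CPM to 198, 376 and 330.3 CPM (log2 change 1.70, SE 0.22, adjusted p = 0.000172). Sox9, a factor of repairing tubules, went from 3.68, 1.74 and 4.08 CPM to 14.6, 28.3 and 28.1 CPM (2.79, SE 0.44, adjusted p = 0.000706). Lcn2, which encodes the injury marker lipocalin 2, went from 22.8, 18.5 and 16.9 CPM to 67.1, 84.9 and 101 CPM (2.05, SE 0.22, adjusted p = 3.68e-05). Anxa1, whose product dampens inflammation, rose by 2.50 (adjusted p = 3.61e-06). Pooled over sham mice, Anxa1 stood at 0.332 CPM in the S100g-rich members and at 96.6 CPM in those low in S100g, and over DOCA-salt mice at 179 and 219 CPM. The growth factor gene Pdgfb (2.71, adjusted p = 0.000366), Ccn1 (1.47, adjusted p = 0.00082), Anxa2 (0.82, adjusted p = 0.00658) and the cytokine receptor Tnfrsf12a (1.204, adjusted p = 0.0124) also rose. The call of Tnfrsf12a was lost without sham mouse 3, DOCA-salt mouse 2 or DOCA-salt mouse 3 (adjusted p = 0.06, 0.0859 and 0.079).

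The largest changes were taken, 12 in each direction, from genes that averaged 20 CPM or more across all 6 mice, with no overlap between the groups and, in the higher group, a level at or above that of the other barcodes. Gabrg3, a subunit of receptors for the transmitter GABA (chromosome 7, from 56366213 to 57036936 on the minus strand), had 0 UMIs in 479 sham members and stood at 142, 249 and 198 CPM in DOCA-salt. Against a floor of 3 UMIs in all sham members together (0.625 CPM), it was at least 309-fold higher. In DOCA-salt 16.5% of its UMIs came from 1 barcode, and it stood at 288 CPM in the S100g-rich members and 93.2 CPM in those with intercalated cell genes.

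The catenin gene Ctnnd2 had 1 UMI in sham and 142 in DOCA-salt, a ratio of levels of 319.9 with a counting interval (95%, exact) of 56.5 to 12722. The cytoskeletal gene Pdlim1 had 1 and 117 UMIs, a ratio of 264 (46.4 to 10498). The synaptic adhesion gene Nlgn1 had 3 and 198 UMIs, a ratio of 149 (50.1 to 727). Each of these stood above 40 CPM in all 3 DOCA-salt mice. With Aqp4 allowed, Ctnnd2, Pdlim1 and Nlgn1 rose by 5.80, 7.21 and 6.18 on the log2 scale (adjusted p = 5.24e-06, 5.24e-06 and 4.25e-05). Dcdc2a, a gene of primary cilia, rose from 1.47, 1.74 and 6.42 CPM to 121, 204 and 162 CPM (log2 change 5.51, SE 0.36, adjusted p = 4.97e-07). The long noncoding RNA 2610307P16Rik (chromosome 13, from 28614558 to 29069613 on the minus strand) rose from 5.89, 9.83 and 13.4 CPM to 198, 371 and 345 CPM (4.86, SE 0.30, adjusted p = 3.65e-07).

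Srgap1 rose by 5.04 (adjusted p = 1.23e-06), Pamr1 by 4.90 (adjusted p = 1.21e-05) and Sh3rf3 by 4.11 (adjusted p = 3.34e-06), each with all 3 DOCA-salt mice between 45.1 and 73.6 CPM. The adhesion gene Ncam1, at 6.62, 0 and 2.33 CPM in sham and 109.8, 19.8 and 21.5 CPM in DOCA-salt, was highest in DOCA-salt mouse 1. There 72.2% of its UMIs came from 1 barcode, and without that mouse its log2 change was 2.82 (adjusted p = 0.0218) instead of 4.14. By DESeq2 the change of Ncam1 did not pass (4.03, adjusted p = 0.0559). Nlgn1 and Ncam1 overlap other genes of the files on the same strand, so their counts are uncertain.

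The 12 largest falls by the same rule held Aqp2 and Aqp3 and 10 genes outside the lists. Ptger1 fell by more than most of them, but its mean over the 6 mice was under 20 CPM. Spock3, a secreted proteoglycan, stood at 76.5, 121 and 94.5 CPM in sham and at 7.32, 2.83 and 0 CPM in DOCA-salt (log2 change -4.72, SE 0.40, adjusted p = 4.78e-06). The collagen gene Col26a1 fell from 90.5, 87.3 and 106 CPM to 8.54, 7.08 and 1.65 CPM (-4.00, SE 0.31, adjusted p = 2.75e-06), and the potassium channel Kcnh5 from 36.1, 41.6 and 38.5 CPM to 3.66, 2.83 and 0 CPM (-4.05, SE 0.44, adjusted p = 3.77e-05). Gpc5, a glypican of the cell surface, fell from 335, 449 and 369.9 CPM to 40.3, 45.3 and 16.5 CPM (-3.52, SE 0.26, adjusted p = 1.23e-06).

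Gpc5 was highest in the S100g-rich members of sham mice, at 500.4 CPM against 183 CPM in those low in S100g. The other way round, Mgat4c stood at 554 CPM in sham members low in S100g and at 5.31 CPM in the S100g-rich ones, and Il1rapl1 at 196 and 2.32 CPM. Over all members Mgat4c fell by 4.18 (adjusted p = 1.48e-05) and Il1rapl1 by 2.95 (adjusted p = 0.0013), and in the S100g-rich members both were too low to test. Apela, whose peptide acts on the apelin receptor, fell from 281, 405 and 335 CPM to 81.8, 36.8 and 61.1 CPM (-2.55, SE 0.23, adjusted p = 6.6e-06), and by 2.00 in the S100g-rich members. Rbfox1, a splicing regulator (-2.79, adjusted p = 1.48e-05), the adhesion gene Cadm2 (-2.55, adjusted p = 4.54e-05) and the lysosomal channel Mcoln3 (-2.46, adjusted p = 8.5e-05) completed the list. With Aqp4 allowed, Apela (-0.40, adjusted p = 0.11), Mcoln3 (0.14, adjusted p = 0.592) and Aqp2 did not pass, and Mgat4c and Rbfox1 fell by 1.41 and 0.97 (adjusted p = 0.000973 and 0.013). Col26a1, Mgat4c and Rbfox1 overlap other genes of the files on the same strand, so their counts are uncertain.

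**Figure D4:**
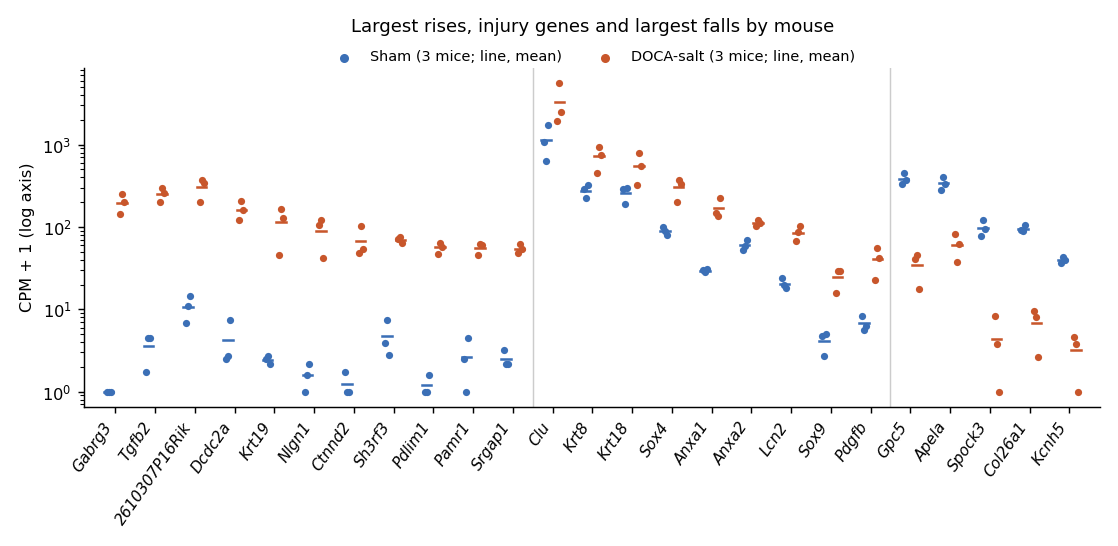
Level of 25 genes in connecting tubule cells by mouse (CPM plus 1, log axis), with sham in blue, DOCA-salt in orange and lines at the means of 3 mice. The left block holds 11 of the largest rises, with Gabrg3 at 0 in sham, the middle block injury and keratin genes, and the right block 5 of the largest falls. The groups do not overlap for any of the 25, and the largest rises and falls were chosen for that. Of all called genes, 459 of 463 higher and 496 of 509 lower had no overlap.

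Of 22 transcription factors of the nephron segments that could be tested, 7 fell and 2 rose (median log2 change -0.46). With Aqp4 allowed, 5 of 23 fell and 4 rose (median -0.13), and the 4 were genes not called with the condition on Aqp4. Ppargc1a, a coactivator of mitochondrial genes, fell from 709, 667 and 684 CPM to 354, 357 and 405 CPM (-0.95, SE 0.16, adjusted p = 0.00111). Tfap2b fell by 0.98 (adjusted p = 0.00274) and Pou3f3 by 0.89 (adjusted p = 0.00378). In the S100g-rich members Pou3f3 changed by -0.69 (adjusted p = 0.0604) and Gata2 by -0.49 (adjusted p = 0.234), without passing, and Pou3f3 overlaps another gene of the files on the same strand. Gata2 (-0.78), Lhx1 (-1.19) and Pax2 (-0.71) fell with adjusted p of 0.0175, 0.0208 and 0.0254. Without DOCA-salt mouse 3 their adjusted p was 0.0625, 0.096 and 0.0905. Gata2 and Lhx1 also missed the threshold without DOCA-salt mouse 2 (0.0846 and 0.077) and without the members with intercalated cell genes (0.176 and 0.0555), Lhx1 by DESeq2 (0.0523), and Pax2 without sham mouse 3 or DOCA-salt mouse 1 (0.125 and 0.1). Esrrg, a nuclear receptor, rose from 1761, 1702 and 1386 CPM to 2953, 2732 and 2991 CPM (0.78, SE 0.18, adjusted p = 0.00988, and 0.0626 without sham mouse 3). Foxi1, the factor of intercalated cells, rose by 1.64 (adjusted p = 0.00627) with overlap between the groups, and was too low to test without the members with intercalated cell genes. With Aqp4 allowed the calls of Pou3f3, Gata2, Pax2, Esrrg and Foxi1 were lost (-0.37, -0.31, 0.03, 0.34 and 0.98, adjusted p = 0.152, 0.331, 0.948, 0.191 and 0.12).

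Of 92 nuclear genes of the respiratory chain, 0 were called by edgeR or by DESeq2, and 8 were lower at an unadjusted p under 0.05 (median log2 change -0.18). At that unadjusted limit 1089 of all 9073 genes tested were lower, so the 8 were no excess over all genes. Of 83 cytosolic ribosomal genes 1 rose (median 0.30). Among 22 genes of stress and dissociation, 6 fell (Ier2, Junb, Ier3, Socs3, Egr1 and Dnajb1) and 2 rose (Klf4 and Hspa8). The immediate-early gene Ier2 went from 338, 451 and 294 CPM to 222, 137 and 139 CPM (log2 change -1.17, adjusted p = 0.0021, and -0.83 with adjusted p = 0.137 in the S100g-rich members). Ier3 and Egr1 did not pass in the S100g-rich members either (-0.41 and -0.99, adjusted p = 0.322 and 0.08). Of 14 genes of interferon response and antigen presentation, 5 rose (B2m, Ifi27, H2-Aa, H2-Eb1 and Bst2) and Irf1 fell. H2-Eb1 overlaps another gene of the files on the same strand. Each of the 5 stood higher in the other barcodes of DOCA-salt mice than in the members, with Bst2 at 81.7 CPM against 27.9 CPM, and the part of free RNA in these rises was not tested. With Aqp4 allowed the calls of Ier2, Junb, Ier3, Egr1, Dnajb1 and Hspa8 were lost (-0.21, -0.19, 0.15, -0.23, 0.15 and 0.45, adjusted p = 0.493, 0.74, 0.667, 0.507, 0.58 and 0.151), as were those of Ifi27 and Irf1 (1.06 and -0.68, adjusted p = 0.0691 and 0.062), while Socs3 fell by 0.52 (adjusted p = 0.0385) and B2m rose by 1.57 (adjusted p = 9.27e-05).

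Of 14 junction genes the claudin Cldn3 rose (1.03, adjusted p = 0.00851, and 0.0547 without DOCA-salt mouse 3) and the cadherin Cdh1 fell (-0.67, adjusted p = 0.021). The change of Cdh1 was -0.59 without the members with intercalated cell genes (adjusted p = 0.0637) and -0.13 in the S100g-rich members (adjusted p = 0.771), and its adjusted p without sham mouse 3, DOCA-salt mouse 1 or DOCA-salt mouse 2 was 0.0668, 0.0914 and 0.0742. Of 9 genes of the cell cycle and growth the receptors Egfr (-0.79, adjusted p = 0.0112) and Igf1r (-0.86, adjusted p = 0.00531) fell. Egfr changed by -0.11 in the S100g-rich members (adjusted p = 0.883), and its adjusted p without DOCA-salt mouse 2 was 0.0589. The calls of Junb, Socs3, Egr1, Dnajb1, Hspa8, B2m, Ifi27 and H2-Aa were lost when 1 of 2 or more of the mice was left out, with adjusted p from 0.0536 for Egr1 without sham mouse 1 to 0.203 for H2-Aa without DOCA-salt mouse 2. With Aqp4 allowed, Cdh1 (-0.10, adjusted p = 0.733) and Egfr (0.09, adjusted p = 0.742) did not pass. By DESeq2, Junb and H2-Aa did not pass (adjusted p = 0.164 and 0.0536).

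Distal convoluted tubule cells, chosen by the same rule with at least 2 UMIs of Slc12a3 in place of the conditions on Calb1, Slc8a1 and Slc12a3, numbered 1249. The change in connecting tubule cells differed from the change in them for 496 of 10298 genes, or 4.82%, in a model with the mouse as a block. Distal convoluted tubule cells could hold any level of Calb1 and Slc8a1. Of the barcodes with both genes, the limit on Slc12a3 left a smaller share in DOCA-salt, as given above. Whether their mix among distal convoluted tubule cells differed by group was not tested. Trpm6 stood at 621 ± 112 CPM in sham and 533 ± 64.0 CPM in DOCA-salt in distal convoluted tubule cells, and the changes of the 2 types differed by 2.85 on the log2 scale (adjusted p = 1.17e-07). Klhl3 fell there, from 709 ± 53.1 to 383 ± 20.5 CPM (adjusted p = 0.00132), a difference of 1.72 (adjusted p = 2.93e-05). Fkbp5 also fell there, from 53.6 ± 6.41 to 31.0 ± 2.39 CPM (adjusted p = 0.00757), a difference of 2.07 (adjusted p = 0.00041).

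Trpv5 in distal convoluted tubule cells was at 40.4 ± 10.5 CPM in sham and 71.9 ± 8.23 CPM in DOCA-salt (adjusted p = 0.0561), and its change in connecting tubule cells was lower by 1.10 (interaction -1.10, adjusted p = 0.00811). The interactions of Scnn1b, Scnn1g and Hsd11b2 were -1.35, -1.54 and -1.84 (adjusted p = 0.00224, 0.0125 and 0.0245). These genes were low in distal convoluted tubule cells, where their thinned shares were 1.66 to 3.36% in sham and 2.27 to 4.29% in DOCA-salt. The interaction of Krt18 was 0.09 (SE 0.24, adjusted p = 0.92). In sham, distal convoluted tubule cells held 49.8 CPM of Fxyd4 and 85.2 CPM of Apela, and the barcodes outside the members held 217 and 88.3 CPM.

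Principal cells, chosen with at least 2 UMIs of Aqp2 and 1 of Aqp4 in place of the conditions on Calb1, Slc8a1, Slc12a3 and Aqp4, numbered 690, and 634 of 10486 genes (6.05%) differed in their change. Members and principal cells were thus set apart by Aqp4 itself, and the interactions were not computed without that condition. The principal cells could hold any level of Calb1 and Slc8a1, and the 13 genes of the rule summed to 1707 to 2193 CPM in sham and 3389 to 4274 CPM in DOCA-salt in them. With principal cells that held 2 or more UMIs of both genes left out, 529 of 9204 genes differed (5.75%). Hsd11b2 stood at 2806 ± 506 CPM in sham and 2946 ± 441 CPM in DOCA-salt in principal cells (adjusted p = 0.783), and its change in connecting tubule cells was lower (interaction -1.44, adjusted p = 1.05e-06). Avpr2 was at 279 ± 44.6 and 299 ± 36.6 CPM there (interaction -1.56, adjusted p = 9.91e-06), and Kcnj1 at 182 ± 23.4 and 200.4 ± 27.1 CPM (interaction -1.26, adjusted p = 5.39e-05). The interactions of Scnn1a, Scnn1b and Scnn1g were -1.24, -0.74 and -0.54 (adjusted p = 9.7e-06, 0.00677 and 0.04). Aqp3 and Apela had interactions of -1.91 and -2.01 (adjusted p = 3.29e-06 and 2.56e-06).

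Trpv5 rose in principal cells from 21.2 ± 9.95 to 83.6 ± 34.0 CPM (adjusted p = 0.00774, interaction -2.45, adjusted p = 9.8e-07). With principal cells holding both Calb1 and Slc8a1 left out, it was too low to test there, and the interaction was -2.80 (adjusted p = 0.0495). Kl rose from 72.2 ± 15.2 to 419 ± 17.1 CPM (adjusted p = 3.23e-05, interaction -2.41, adjusted p = 8.17e-08), but with those cells left out it did not pass in principal cells (0.56, adjusted p = 0.287), nor did the interaction (-0.38, adjusted p = 0.419). Tgfb2 had an interaction of 4.53 against principal cells (adjusted p = 0.00101) and of 3.08 against distal convoluted tubule cells (adjusted p = 0.0581), and Dcdc2a of 3.62 and 2.70 (adjusted p = 8.44e-05 and 0.000322). Dcdc2a also rose in both other types, by 1.95 in principal cells and 2.77 in distal convoluted tubule cells (adjusted p = 0.00818 and 1.84e-06). With principal cells holding both Calb1 and Slc8a1 left out, Kcne1, Klk1 and Lcn2 also changed in principal cells (-2.44, -2.45 and 1.84, adjusted p = 0.00595, 0.0227 and 0.00162). Their interactions did not pass (0.65, 0.51 and 0.18, adjusted p = 0.541, 0.634 and 0.788). Krt19 rose there by 2.97 (adjusted p = 0.00488), with an interaction that passed (3.19, adjusted p = 0.00746).

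**Figure D5:**
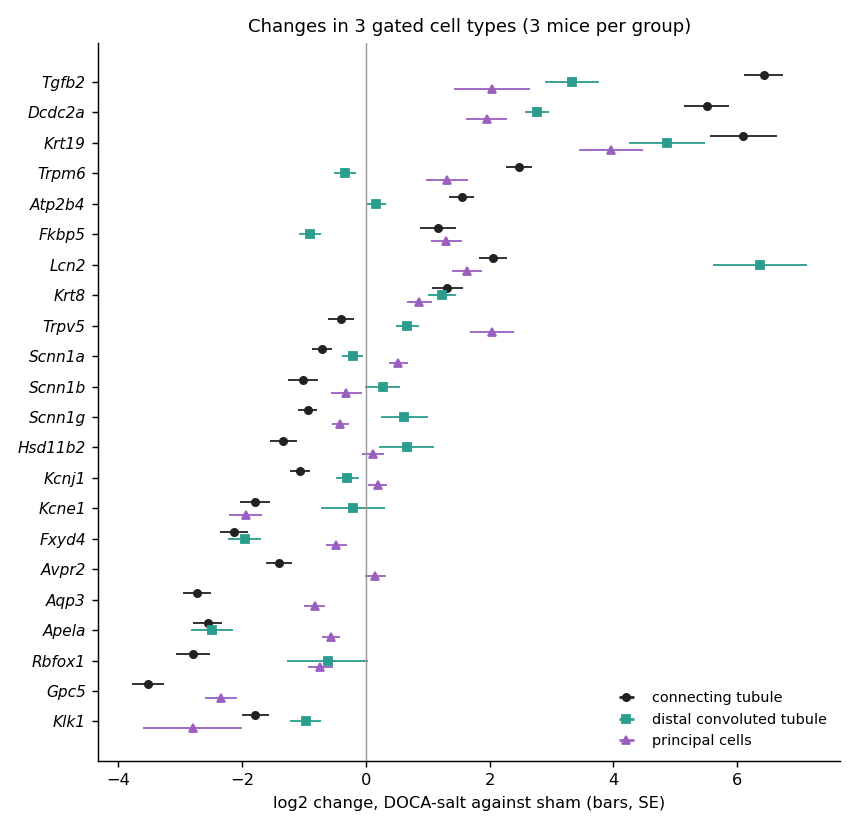
Log2 change between DOCA-salt and sham (x axis, bars 1 SE, 3 mice per group) of 22 genes in connecting tubule cells (black circles), distal convoluted tubule cells (green squares) and principal cells (purple triangles), where a type could be tested. Trpm6 lies to the right for connecting tubule cells (2.48) and slightly left of 0 for distal convoluted tubule cells (-0.34), and Trpv5 lies furthest right for principal cells (2.04).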

How the data were processed

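Whole kidneys were dissociated and 1 single-cell library per mouse was read with 10x Genomics 3′ chemistry (3 sham and 3 DOCA-salt mice). The authors deposited filtered UMI counts per gene and barcode (33696 genes, GRCm39). Their notes name Cell Ranger 9.0.0, while the file headers give 8.0.1. Members were chosen as stated in the results, with no cell type annotation used. UMIs of the members were summed per mouse, after the 13 genes of the rule and 13 mt- genes were left out, and were compared with edgeR 4.0.16 in R 4.3.3 (filterByExpr, TMM, quasi-likelihood test, Benjamini-Hochberg adjustment, threshold 0.05). CPM were computed over all UMIs of the members and were not TMM-scaled. Shares were compared over mice by two-sided exact permutation tests, for which 0.1 is the smallest p. Barcode counts, intervals and floors cover counting error only. Doublets were scored with Scrublet (scanpy 1.11.5) and kept in the main test.

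The members, the 14 gene lists and the tests were chosen with earlier results of these data known. Genes named were those called in a list, the first 6 lists, the 12 largest rises and 12 largest falls (20 CPM or more on average across the 6 mice, no overlap, level no lower than in other barcodes), and the 5 largest interactions per direction and cell type. Egfem1, Tagln and Acta2 and the per-class levels were named after their values were seen. Alternatives without members with intercalated cell genes, in S100g-rich members, without the condition on Aqp4 and with Calb1 and Slc8a1 barcodes left out of principal cells were added after the data were seen. Mice are the replicates. The numbers 1 to 3 are label numbers and are not known to pair mice. Some genes counted in the lists are not reported here by name.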

Additional observations from a re-analysis of the deposited data

Results flagged for a closer look

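The change between DOCA-salt and sham differed between connecting tubule cells and another cell type of the same mice for 496 genes against distal convoluted tubule cells and for 634 genes against principal cells, each by the interaction term of an edgeR model. All were computed with the condition of no Aqp4 in connecting tubule cells, which removed a larger share of DOCA-salt than of sham barcodes.

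Against distal convoluted tubule cells, the most positive interactions were those of Pdlim1 (6.34), Akap12 (4.79), Tagln (4.53), Pde10a (4.26) and Acta2 (4.11). Pde10a went from 59.4 to 8.47 CPM in distal convoluted tubule cells and stood at 32.4 CPM in DOCA-salt in connecting tubule cells. Tagln and Acta2 rested on DOCA-salt mouse 1, where 1 barcode held 96.0% and 84.9% of the DOCA-salt UMIs of these genes, and without that mouse their interactions were 0.19 (adjusted p = 0.954) and 1.61 (adjusted p = 0.269). Tagln also missed the threshold without sham mouse 2 or 3 (adjusted p = 0.0547 and 0.214) and Acta2 without sham mouse 3 (adjusted p = 0.196). The interaction of Akap12 was 3.62 without DOCA-salt mouse 1 (adjusted p = 0.000466).

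The most negative were those of S100a14 (-5.71), Lcn2 (-4.18), Samd5 (-3.42), Ednrb (-3.27) and Edn1 (-3.02). Lcn2 went from 1.06 to 107 CPM in distal convoluted tubule cells and from 19.4 to 84.3 CPM in connecting tubule cells, and Edn1 went from 3.08 to 28.5 CPM against 32.7 and 34.5 CPM. S100a14 and Samd5 were higher in DOCA-salt in both types. S100a14 went from 0 to 26.9 CPM in distal convoluted tubule cells and from 8.25 to 44.3 CPM in connecting tubule cells. With no S100a14 in sham distal convoluted tubule cells, the size of its interaction is uncertain. Samd5 went from 1.45 to 60.5 CPM and from 31.1 to 94.8 CPM. Ednrb went from 1.68 to 5.64 CPM in distal convoluted tubule cells and from 35.5 to 9.79 CPM in connecting tubule cells. Its low level in distal convoluted tubule cells leaves the size of its interaction uncertain too. The interaction of S100a14 missed the threshold without sham mouse 2 (-5.24, adjusted p = 0.0834).

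Against principal cells, the most positive interactions were those of Srgap1 (5.05), Ctnnd2 (4.64), Tgfb2 (4.53), Rtl4 (4.296) and 2610307P16Rik (4.06). In principal cells Srgap1 stood at only 1.76 CPM in sham and 1.56 CPM in DOCA-salt, and Rtl4 at 11.3 and 0.752 CPM. The sizes of these interactions are therefore uncertain. Ctnnd2 missed the threshold without sham mouse 3 (2.998, adjusted p = 0.392). Rtl4 missed it without sham mouse 1 (0.77, adjusted p = 0.870), DOCA-salt mouse 1 (3.23, adjusted p = 0.209) or DOCA-salt mouse 2 (4.46, adjusted p = 0.058), and with principal cells holding both Calb1 and Slc8a1 left out (4.98, adjusted p = 0.0794).

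The most negative were those of Aqp1 (-3.68), Mgat4c (-3.37), Ces1d (-2.75), Angpt1 (-2.65) and Sprr2g (-2.65). Aqp1 missed the threshold without DOCA-salt mouse 2 (-1.37, adjusted p = 0.272), and Sprr2g without sham mouse 2 (-2.27, adjusted p = 0.0728) or sham mouse 3 (-2.78, adjusted p = 0.0731). Angpt1, a ligand of the endothelial receptor Tek, went from 154 to 58.6 CPM in connecting tubule cells and from 32.3 to 70.7 CPM in principal cells.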

How the results depend on the processing

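The counts of 463 genes higher and 509 lower depended on depth and on the members counted. DESeq2 called 332 lower, no filter on low counts 726 higher, the S100g-rich members 300 lower, members with Aqp2 at 0 only 36 higher and 25 lower (of 2861 tested), and members thinned to 1000 UMIs 45 and 39 (of 1403 tested). Leaving out 1 mouse gave 338 to 563 higher and 275 to 543 lower. With a replicate block the counts were 303 and 261. The replicate numbers are not known to pair the mice. Same-numbered mice had correlations of -0.108, -0.252 and -0.0698 between their deviations from the group means. With 3 mice per group these deviations are tied to one another, so the correlations cannot settle whether the mice were paired. The 496 interactions with distal convoluted tubule cells became 807 with no filter and 326 to 460 without 1 mouse, and the 634 with principal cells 377 to 556 without 1 mouse. The share of members was lower in DOCA-salt under the alternatives run, except that members with Aqp2 at 0 were more frequent there (log2 ratio 0.89). Among 142 named genes with up to 23 alternatives each and the thinned shares, 18 values changed sign with a call, or the smallest exact p, in either setting. Sign changes of genes called in neither setting are not listed. Without the condition on Aqp4 these were Aqp2 (0.14), Avpr2 (0.31), Dnajb1 (0.15), Egfr (0.086), Fxyd4 (0.29), Ier3 (0.15), Mcoln3 (0.14), Pax2 (0.027) and the S100g share (-14.8 percentage points). With Aqp2 at 0 they were Bsnd (-0.19), Cdh1 (0.42), Gata2 (0.21), Ier2 (0.0078), Klhl3 (-0.46) and Nedd4l (0.14). Pde1a gave -0.70 without members with intercalated cell genes and -0.74 in S100g-rich members, and the Trpv5 share was higher in DOCA-salt by 5.42 percentage points at 3000 UMIs. The cause was not tested.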
